A study of Mus musculus with 23 samples.

Results

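The transcripts described here are those of 37 genes of the cell cycle, listed by name: 13 of S phase, the G1 cyclin Ccnd1, and 23 of G2 and mitosis (G2/M). Each gene was represented by 1 probe set, chosen among those annotated to that gene alone as the one whose mean over the 23 arrays was highest. A total of 36 of the 37 genes were measured in this way, of 18193 genes in all. Ccnb1, which encodes cyclin B1, had no probe set paired with it alone and was not analysed here. The choice of probe sets used no comparison between groups, but the genes were listed with earlier results of these data known.

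The arrays were hybridised with total RNA from whole livers of male hemizygous FVB/N-SULT1A1/2 mice, which carry human sulfotransferase transgenes and are labelled as 5 weeks of age. Treated mice were given 1-MIM-OH (1-methoxy-3-indolylmethyl alcohol), a breakdown product of a glucosinolate of cruciferous plants, orally at 26 mg/kg and 3 times a week. Vehicle mice were given glyceryl trioctanoate alone. Mice were killed 24 h after their final dose, which was the 10th at 21 d (6 vehicle and 5 treated mice) and the 40th at 90 d (6 vehicle and 6 treated mice). The age label is the same for both times. Since 90 d is longer than 5 weeks, it cannot be the age at death of the 90 d mice. Between the 2 times, age and number of doses thus differ together and cannot be told apart. All 4 groups carry the transgenes, so no comparison shows what the compound does without them. The array of 1 more treated mouse at 21 d was left out by the submitters and was not analysed here.

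Hepatocytes of an adult liver are mostly quiescent and re-enter the cycle after injury or loss of tissue. In G1, cyclin D and its kinases lead to release of the E2F transcription factors from the RB family, and E2F targets then supply what S phase needs: cyclin E, the helicase MCM2-7, the sliding clamp PCNA and the enzymes that make deoxynucleotides. Genes of G2 and mitosis follow later, through FOXM1 and B-MYB, and act in chromosome condensation, spindle assembly, the checkpoint and cell division. In resting cells, and downstream of p53 and p21, the DREAM complex represses both waves. Transcript levels of these genes are widely used as a sign of proliferation, but they do not show that cells divide.

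Promoters of the 2 classes differ in how often they carry certain motifs. Those of 4 members with large differences at 90 d are shown for reference. They are not the 4 largest: Mki67 and Birc5, with larger differences than Cdk1, are not shown. The windows are from RefSeq, build GRCm38.p6, and run from 170 bases before the annotated start to 20 bases from it. Capitals mark the CHR (cell cycle genes homology region, TTTGAA), the CCAAT box (CCAAT) and E2F words (TTTGGCGC, TTTCGCGC, TTTGCCGC or TTTCCCGC), on either strand; a word and its reverse complement may overlap.
Mcm6, chr1:128359686-128359875, minus strand: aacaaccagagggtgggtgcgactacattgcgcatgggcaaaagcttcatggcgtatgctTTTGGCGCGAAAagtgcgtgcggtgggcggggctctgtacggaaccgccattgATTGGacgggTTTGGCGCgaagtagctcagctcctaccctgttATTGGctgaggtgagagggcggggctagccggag
Mcm5, chr8:75109339-75109528, plus strand: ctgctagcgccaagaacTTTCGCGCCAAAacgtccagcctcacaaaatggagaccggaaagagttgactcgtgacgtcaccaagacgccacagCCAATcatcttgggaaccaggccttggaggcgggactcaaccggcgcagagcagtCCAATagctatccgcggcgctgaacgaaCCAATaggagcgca
Ccnb2, chr9:70421535-70421724, minus strand: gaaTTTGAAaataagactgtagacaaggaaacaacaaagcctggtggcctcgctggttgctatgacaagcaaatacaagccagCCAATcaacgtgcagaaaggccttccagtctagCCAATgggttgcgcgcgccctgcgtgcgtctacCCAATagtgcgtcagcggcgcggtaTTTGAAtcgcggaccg
Cdk1, chr10:69352893-69353082, minus strand: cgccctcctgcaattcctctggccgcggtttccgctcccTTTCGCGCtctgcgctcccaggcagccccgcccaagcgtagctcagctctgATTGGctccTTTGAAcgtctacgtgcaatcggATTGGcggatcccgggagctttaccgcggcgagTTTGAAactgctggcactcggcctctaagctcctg
The printed Mcm6 and Mcm5 windows held E2F words and CCAAT boxes but no CHR. The Ccnb2 window held 2 CHR words and 3 CCAAT boxes and no E2F word, and that of Cdk1 held all 3 motifs.

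A promoter of 300 bases (250 before the start and 50 from it) was found in the table for 29 of the 37 members. The CHR word was in 12 of 18 promoters of G2/M members (66.7%), in 1 of 11 of S phase members (9.09%) and in 18.1% of all 27025 promoters. CCAAT was in 16 of 18 (88.9%) and 7 of 11 (63.6%), against 37.9% of all promoters. E2F words were in 1 of 18 (5.56%) and 4 of 11 (36.4%), against 2.32%. These matches describe letters in a window and do not show binding.

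Signals are given as deposited log2 values, so that 1 unit is a 2-fold difference. Array medians lay between 5.53 and 5.61. Within groups the arrays correlated at 0.984 to 0.997 over probe sets. Many members were dim: 16 of 36 had a mean under 5.55, the median of all values, and only 7 of 22 measured G2/M members had a mean of at least 6, against 11 of 13 S phase members. The probe set names of 7 members end in _x_at and of 4 in _s_at, which by the manufacturer's convention can bind other transcripts too. Hepatocyte markers (7 measured) averaged 14.18 to 14.45 on every array. A probe set was said to pass at a limma adjusted p under 0.05, with adjustment over all 45037 probe sets tested.

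The first comparison asked which of these transcripts differed after 10 treatments. No S phase member and no G2/M member passed at 21 d in limma's test, where 0.957% of all probe sets passed. The S phase genes were spread around 0, with 9 of 13 mean differences above 0 (43.7% of all genes were above 0) and a median of 0.07. The G2/M genes had 7 of 22 above 0 and a median of -0.04. With 1 array left out, that median ranged from -0.09 with 5 of 22 above 0 (without treated replicate 2) to 0.01 with 12 above 0 (without treated replicate 4). At an unadjusted limma p under 0.05 there were 1 of 13 S phase and 0 of 22 G2/M members, against 16.6% of all genes. All 13 and all 22 of the 95% confidence intervals lay within 2-fold either way.

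Ccne2, which encodes the cyclin E2 that drives entry into S phase with CDK2, had the largest value at 21 d. Its signals in the treated livers were 5.28, 4.95, 5.06, 5.36 and 4.94, against a lowest, median and highest of 4.51, 4.78 and 4.91 in vehicle livers. The 5 treated livers lay above all 6 vehicle livers, which was so for 1.53% of all genes, and no member had all treated livers below (1.28% of genes). The difference was 0.34 ± 0.10 (SE, limma adjusted p = 0.0982). It passed in 1 of 23 fits that each left out 1 array, that without treated replicate 2 (0.39, limma adjusted p = 0.0433).

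The other S phase genes showed no separation at 21 d. Mcm2, Mcm3, Mcm4, Mcm5, Mcm6 and Mcm7, the subunits of the replicative helicase, had mean differences between -0.09 (Mcm6) and 0.09 (Mcm5). Mcm5 had signals of 6.02, 7.61, 5.75, 6.13 and 6.90 in treated livers, against a lowest, median and highest of 5.61, 6.50 and 6.77 in vehicle livers, with replicates 2 and 5 above the vehicle range. Leaving out 1 array at a time moved the difference from -0.19 to 0.27 for Mcm5 and from -0.47 to 0.10 for Mcm6, the lowest values being those without treated replicate 2. Mcm2 had 7.49, 7.58, 7.51, 7.19 and 7.60, against 7.30, 7.50 and 7.71, and only replicate 4 lay outside the vehicle range (-0.02 ± 0.08 SE, limma adjusted p = 0.949). Pcna, the polymerase clamp, had signals of 10.03, 10.59, 10.04, 10.02 and 10.00 in treated livers and of 10.25, 10.32 and 10.54 (lowest, median, highest) in vehicle livers. So 4 of 5 treated livers were under the whole vehicle range and replicate 2 was over it (difference -0.21 ± 0.11 SE, limma adjusted p = 0.384). Rrm2, a subunit of ribonucleotide reductase, had signals of 6.71, 6.32, 6.54, 6.43 and 6.71 in treated and of 6.13, 6.30 and 6.47 in vehicle livers (0.24 ± 0.14 SE, limma adjusted p = 0.432). The groups overlapped. Tyms and Tk1, enzymes of thymidylate supply, differed by 0.14 and 0.01, the transcription factor gene E2f1 by 0.09 and Ccne1, cyclin E1, by 0.06.

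Among G2/M genes at 21 d, single arrays set the range. Mki67, which encodes the proliferation antigen Ki-67, had signals of 5.21, 6.59, 5.20, 5.05 and 5.40 in treated livers and of 4.87, 5.40 and 5.58 (lowest, median, highest) in vehicle livers. Only treated replicate 2 was above the vehicle range (difference 0.17 ± 0.25 SE, limma adjusted p = 0.82). Cdk1, the mitotic kinase, had 6.74, 7.26, 6.65, 6.65 and 6.99, against 6.88, 6.96 and 6.99 in vehicle livers. Again replicate 2 was above all vehicle livers, whereas replicates 1, 3 and 4 were below them (-0.09 ± 0.11 SE, limma adjusted p = 0.764). Top2a, topoisomerase II alpha, had 5.58, 5.38, 5.52, 5.44 and 5.57, within or just under the vehicle range of 5.41 to 5.64. The smallest adjusted p of a G2/M member was that of Foxm1, a transcription factor of G2/M genes (-0.16 ± 0.08 SE, limma adjusted p = 0.332).

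The treated livers at 21 d also differed in other measures. For the Gapdh control, the signal at the 3' end minus that at the 5' end, a measure of shortened RNA or product, was 1.18, 0.14, 1.02, 1.23 and 1.45 in treated replicates 1 to 5 and 0.09 to 0.49 in vehicle livers. Replicate 2, with the low value, was also the liver with the highest signal for 10 of 22 G2/M members (30% of all genes) and 6 of 13 S phase members. The 11 Kupffer cell and macrophage markers deviated in it by 2.02 from their mean over the 23 arrays, against -0.93 to -0.49 in the other treated livers. Vehicle livers at 21 d ranged from -0.55 to 1.53. In a fit that had this Gapdh measure as covariate, 14 of 22 G2/M genes were above 0 at 21 d, with a median of 0.07, and none passed in limma's test. The part of the macrophage signal in the values of cell cycle genes was not tested. Without the 5 arrays in which this Gapdh difference was over 0.9, which leaves replicate 2 as the only treated liver at 21 d, the G2/M median was 0.13.

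**Figure D1:**
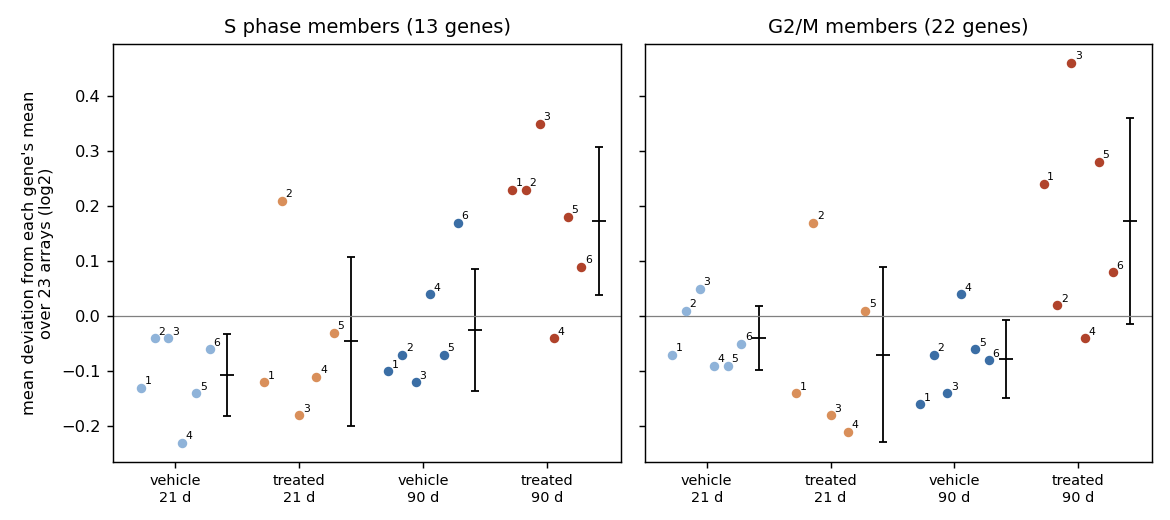
Mean deviation of the 13 S phase (left) and 22 G2/M members (right) from each gene's mean over the 23 arrays, on the log2 scale, with 1 point per liver numbered by replicate, and the group mean with its SD as a bar. In treated livers at 90 d the G2/M deviation was highest in replicate 3 (0.46) and replicate 5 (0.28), and at 21 d in treated replicate 2 (0.17).

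The comparison at 90 d followed 40 treatments. All 22 measured G2/M genes had a higher mean in treated livers at 90 d, with a median log2 difference of 0.18 and a range from 0.07 (Foxm1) to 0.77 (Ccnb2), where 57.3% of all genes were above 0 and the median of all genes was 0.02. None of the 22 passed in limma's test, and none of the 13 S phase genes, where 0.502% of all probe sets passed. At an unadjusted limma p under 0.05 there were 10 of 22 G2/M and 3 of 13 S phase members, against 12.1% of all genes. The S phase genes had 11 of 13 mean differences above 0, with a median of 0.12. The members share livers and often one cell population, so these counts are not independent, and they are a description. RNA of whole liver does not tell more cells in cycle from more RNA per cell.

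Ccnb2 and Cdk1, a mitotic cyclin and kinase, had the smallest adjusted p-values among G2/M members at 90 d. Ccnb2, cyclin B2, had signals of 5.66, 5.13, 6.20, 5.19, 6.53 and 5.27 in treated replicates 1 to 6, against 4.47, 4.93 and 5.16 (lowest, median, highest) in vehicle livers. Treated replicate 2 alone lay within the vehicle range. The difference was 0.77 ± 0.21 (SE), or 1.71-fold, with a 95% confidence interval from 0.34 to 1.2 (limma adjusted p = 0.108). Cdk1 had signals of 7.28, 7.18, 7.66, 6.98, 7.51 and 7.09, against 6.71, 6.93 and 7.02 in vehicle livers. Treated replicate 4 alone lay within the vehicle range (0.40 ± 0.11 SE, 1.32-fold, interval from 0.18 to 0.62, limma adjusted p = 0.112). Both genes passed when the Gapdh difference was a covariate (limma adjusted p = 0.037 for Ccnb2 and 0.0248 for Cdk1).

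The other regulators of mitosis had smaller values at 90 d. Ccna2, cyclin A2, was 0.16 higher, and the kinase genes Plk1, Aurka and Aurkb were 0.10, 0.19 and 0.14 higher. Of the spindle checkpoint and the anaphase-promoting complex that it restrains, Bub1 was 0.24, Bub1b 0.11, Cdc20 0.15 and Ube2c 0.37 higher. Gtse1, which binds microtubules and p53, was 0.10 higher. The lowest limma adjusted p of these genes was that of Bub1, 0.319.

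Among genes of chromosomes and the spindle, Mki67 apart, Birc5 had the largest difference at 90 d. Birc5, survivin of the chromosomal passenger complex, had signals of 5.03, 4.79, 6.13, 4.90, 5.51 and 4.82 in treated livers and of 4.49 to 4.82 in vehicle livers (0.51 ± 0.17 SE, limma adjusted p = 0.251). Nusap1, a spindle-associated protein gene, had 4.63, 4.89, 5.12, 4.34, 5.03 and 4.79, against 4.26 to 4.59 (0.38 ± 0.11 SE, limma adjusted p = 0.15). Replicates 3 and 5 were the highest in both genes, and the signals were under the median of all values in most livers. Tpx2, an activator of Aurora A, was the only member whose 6 treated livers lay above all vehicle livers at 90 d, at 5.50 to 5.61 against 5.19 to 5.45, which was so for 0.967% of all genes. No member had all treated livers below at 90 d (0.385% of genes). Its difference was 0.20 ± 0.11 (SE, limma adjusted p = 0.538). The centromere histone gene Cenpa was 0.28 higher, the kinesin genes Kif11 and Kif20a 0.11 and 0.10, and Prc1, which bundles midzone microtubules, 0.09. Other, dimmer probe sets of Cenpa had differences of -0.05 and -0.16 (limma adjusted p = 0.953 and 0.55), so that the value for Cenpa depends on the probe set.

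Mki67 and Top2a, the usual markers of proliferation, did not pass. Mki67 had signals of 5.44, 5.22, 6.73, 5.04, 6.11 and 5.97 in treated livers, against 4.98, 5.23 and 5.36 in vehicle livers at 90 d. Replicates 3, 5 and 6 stood well above the vehicle range, replicate 1 just above it, and replicates 2 and 4 within it (0.55 ± 0.24 SE, 1.47-fold, limma adjusted p = 0.426). Top2a had 5.71, 5.49, 5.49, 5.53, 5.68 and 5.68, against 5.12, 5.45 and 5.70, so that the groups overlapped over most of their range (0.17 ± 0.08 SE, limma adjusted p = 0.448). Its other 2 probe sets had 0.56 ± 0.20 (SE, limma adjusted p = 0.283) and -0.17 ± 0.10 (SE, limma adjusted p = 0.6), so that the value for Top2a depends on the probe set.

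**Figure D2:**
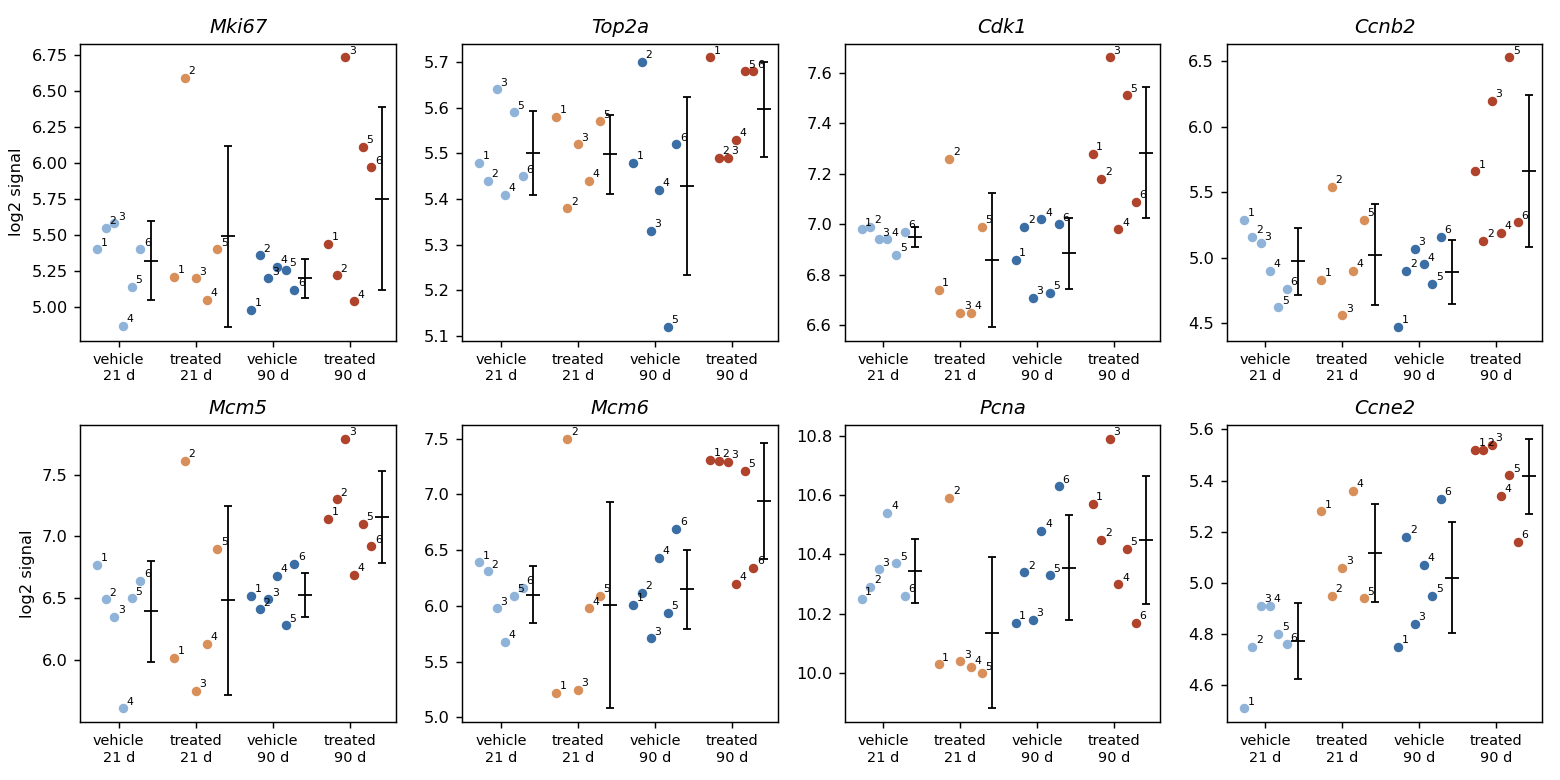
Log2 signal of 4 G2/M members (top) and 4 S phase members (bottom) in each liver, numbered by replicate, with the group mean and SD as a bar; each panel has its own axis. For Mki67, treated livers at 90 d spread more widely than vehicle livers, from 5.04 to 6.73 against 4.98 to 5.36. Top2a (5.49 to 5.71 against 5.12 to 5.70) and Ccne2 (5.16 to 5.54 against 4.75 to 5.33) went the other way.

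In S phase, the helicase subunits Mcm6 and Mcm5 had the largest differences at 90 d. Mcm6 had signals of 7.31, 7.30, 7.29, 6.20, 7.21 and 6.34 in treated livers, against 5.71, 6.06 and 6.69 (lowest, median, highest) in vehicle livers. Replicates 1, 2, 3 and 5 lay above the vehicle range and replicates 4 and 6 within it. The difference was 0.79 ± 0.29 (SE), or 1.73-fold, with an interval from 0.20 to 1.39 (limma adjusted p = 0.301). Mcm5 had 7.14, 7.30, 7.79, 6.69, 7.10 and 6.92, against 6.28, 6.50 and 6.78, with replicate 4 alone in the vehicle range (0.63 ± 0.24 SE, limma adjusted p = 0.34). On the probe sets used, the other 4 subunits of this helicase had differences of 0.13 for Mcm2, 0.21 for Mcm3, -0.08 for Mcm4 and 0.12 for Mcm7. Other probe sets of the same genes gave other values: the second of Mcm4 had 0.33 ± 0.12 (SE, limma adjusted p = 0.262), and the 4 others of Mcm3 had 0.02 to 0.47, the highest with a limma adjusted p of 0.29. Mcm2 had signals of 7.80, 7.82, 7.74, 7.79, 7.53 and 7.79, against 7.49, 7.63 and 7.70, with 5 of 6 treated livers above the vehicle range (limma adjusted p = 0.571).

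Ccne2 had at 90 d the smallest adjusted p of the members. Its signals were 5.52, 5.52, 5.54, 5.34, 5.42 and 5.16 in treated livers, against 4.75, 5.01 and 5.33 in vehicle livers, with replicate 6 alone in the vehicle range. The difference was 0.40 ± 0.10 (SE, 1.32-fold, limma adjusted p = 0.0766), close to that at 21 d. Over the fits that each left out 1 array, the limma adjusted p ranged from 0.0309 to 0.203, and 2 of 23 passed, those without vehicle or treated replicate 6 of 90 d. The gene has 1 probe set, and it also passed when p-values were adjusted over genes with probe sets averaged, with array weights, with the Gapdh covariate and without the arrays over 0.9 (limma adjusted p = 0.046, 0.0498, 0.0449 and 0.0204). Ccne2 did not pass under the other settings that kept it, such as the one with the replicate number as a block. The share of all probe sets that passed under each setting is not given here. The transcript was dim, with group means of 4.77 to 5.42.

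The remaining S phase genes differed little at 90 d. Pcna had signals of 10.57, 10.45, 10.79, 10.30, 10.42 and 10.17, against 10.17, 10.34 and 10.63 in vehicle livers, and the groups overlapped (0.09 ± 0.11 SE, limma adjusted p = 0.815). Rrm2 had 6.67, 6.51, 6.96, 6.05, 6.55 and 7.25, against 6.18, 6.43 and 6.56, with treated livers on both sides of the vehicle range (0.26 ± 0.14 SE, limma adjusted p = 0.525). Tyms differed by -0.07, Tk1 by 0.02, E2f1 by 0.03 and Ccne1 by 0.04. The intervals of 11 of 13 S phase and 20 of 22 G2/M members lay within 2-fold either way at 90 d, those of Mcm5, Mcm6, Mki67 and Ccnb2 being the exceptions.

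**Figure D3:**
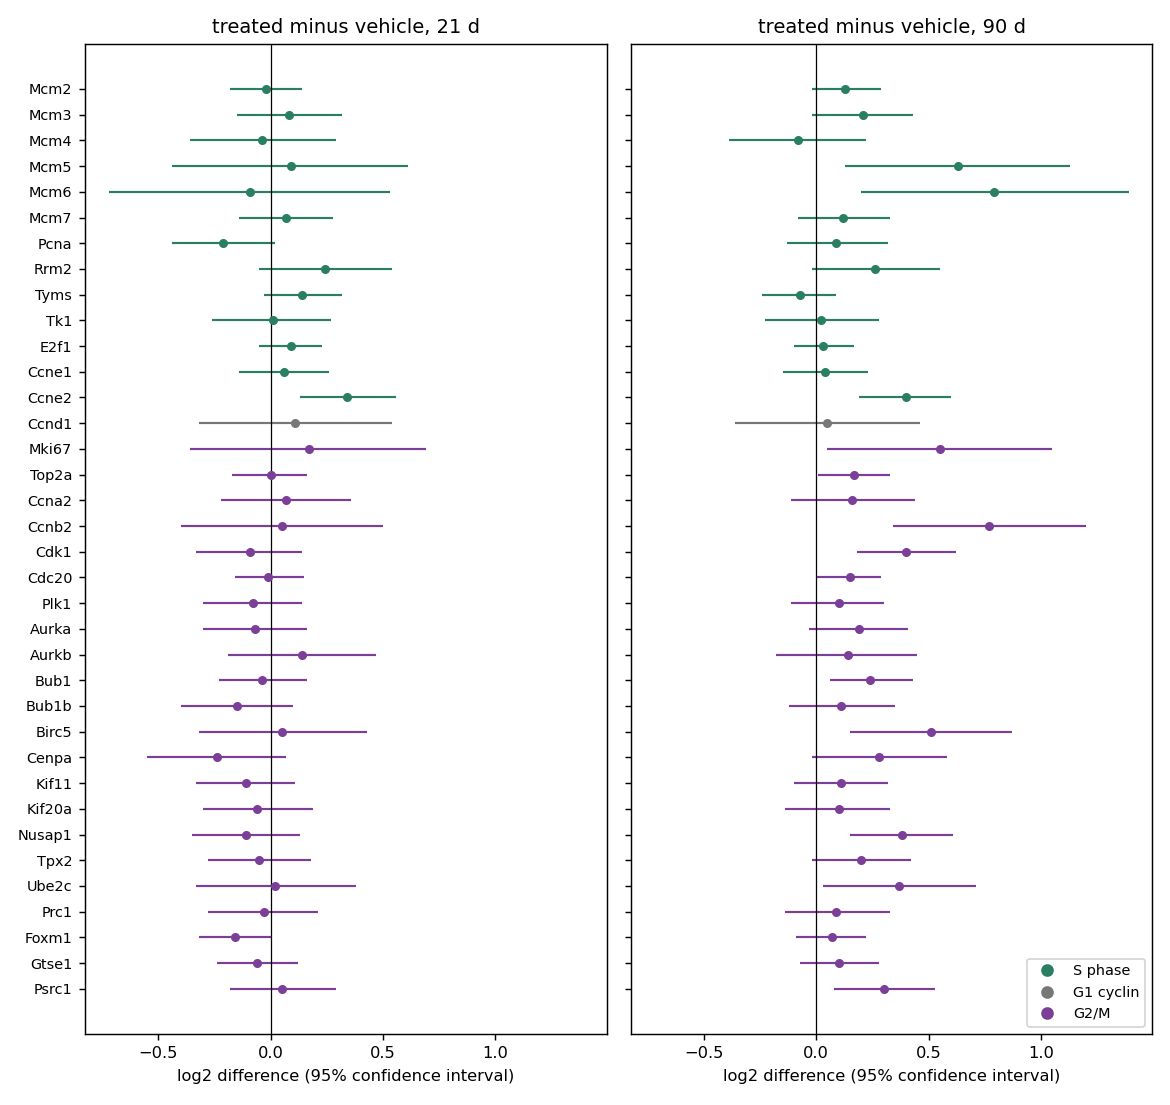
Difference of mean log2 signal between treated and vehicle livers for each of the 36 members at 21 d (left) and 90 d (right), with the 95% confidence interval of the limma fit as a line. At 90 d all 22 G2/M points lie right of 0, and at 21 d 7 of them do.

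The effects at both times were also set against each other. No member passed for the difference of the treatment effects, 90 d minus 21 d, in limma's test, and neither did any other probe set (0% of 45037). The difference was above 0 in 21 of 22 G2/M genes, with a median of 0.25, and in 9 of 13 S phase genes, with a median of 0.05, where 59.9% of all genes were above 0. At an unadjusted limma p under 0.05 there were 6 of 22 and 1 of 13, against 8.64% of all genes. The largest values were those of Mcm6 (0.89 ± 0.42 SE, limma adjusted p = 0.516) and Ccnb2 (0.72 ± 0.30 SE, limma adjusted p = 0.492). A change of the response with time was thus not shown for any member. Without the 5 arrays over 0.9 in the Gapdh difference the medians were 0.11 for G2/M and -0.10 for S phase genes.

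Vehicle livers at 90 d differed little from those at 21 d. No member passed in limma's test (0.00666% of all probe sets passed). Among G2/M genes 5 of 22 were above 0, with a median of -0.04, and among S phase genes 11 of 13, with a median of 0.10, against 44.3% of all genes. Unadjusted limma p-values under 0.05 were found in 0 of 22 and 3 of 13, against 6.43% of all genes. Between treated livers of the 2 times, which share no vehicle, 22 of 22 G2/M and 10 of 13 S phase genes were above 0 at 90 d, with medians of 0.23 and 0.27, against 57.8% of all genes. None of them passed in limma's test, where 0.0755% of all probe sets did, and 10 of 22 and 9 of 13 had an unadjusted limma p under 0.05, against 13.3% of all genes. Treated 21 d replicate 2 mattered here: without it 5 S phase members (Mcm2, Mcm3, Mcm5, Mcm6 and Pcna) and 4 G2/M members (Cdk1, Bub1, Cenpa and Nusap1) passed, with limma adjusted p-values from 0.00697 for Mcm6 to 0.0486 for Mcm2. All 4 treated 21 d livers left in that fit had a Gapdh difference over 0.9. The share of all probe sets that passed in it is not given here, so these counts do not set the members apart. In the fit to all arrays, other probe sets of Cenpa differed by -0.35 and -0.27 between treated livers, against 0.39 for the one used. Without the arrays over 0.9, replicate 2 is the only treated liver at 21 d. The medians were then 0.08 for G2/M and -0.07 for S phase genes.

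Livers of the treated 90 d group differed from each other in these genes. The mean deviation of the 22 G2/M genes was 0.24, 0.02, 0.46, -0.04, 0.28 and 0.08 in replicates 1 to 6, and -0.16 to 0.04 in vehicle livers. For the 13 S phase genes it was 0.23, 0.23, 0.35, -0.04, 0.18 and 0.09, against -0.12 to 0.17. Replicate 4 was the lowest treated liver in both. Replicate 3 held the highest signal of its group for 12 of 22 G2/M genes, whereas it did so for 16.7% of all genes. Above every vehicle liver of 90 d were 17 of 22 G2/M genes in replicate 1 and 16 in replicate 3, 10 in replicate 5 and 7 or 8 in replicates 2, 4 and 6, against 20.7% to 25.1% of all genes. The SD within treated livers exceeded that within vehicle livers for 18 of 22 G2/M genes at 90 d (72% of all genes) and for 20 of 22 at 21 d (65.7% of all genes).

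**Figure D4:**
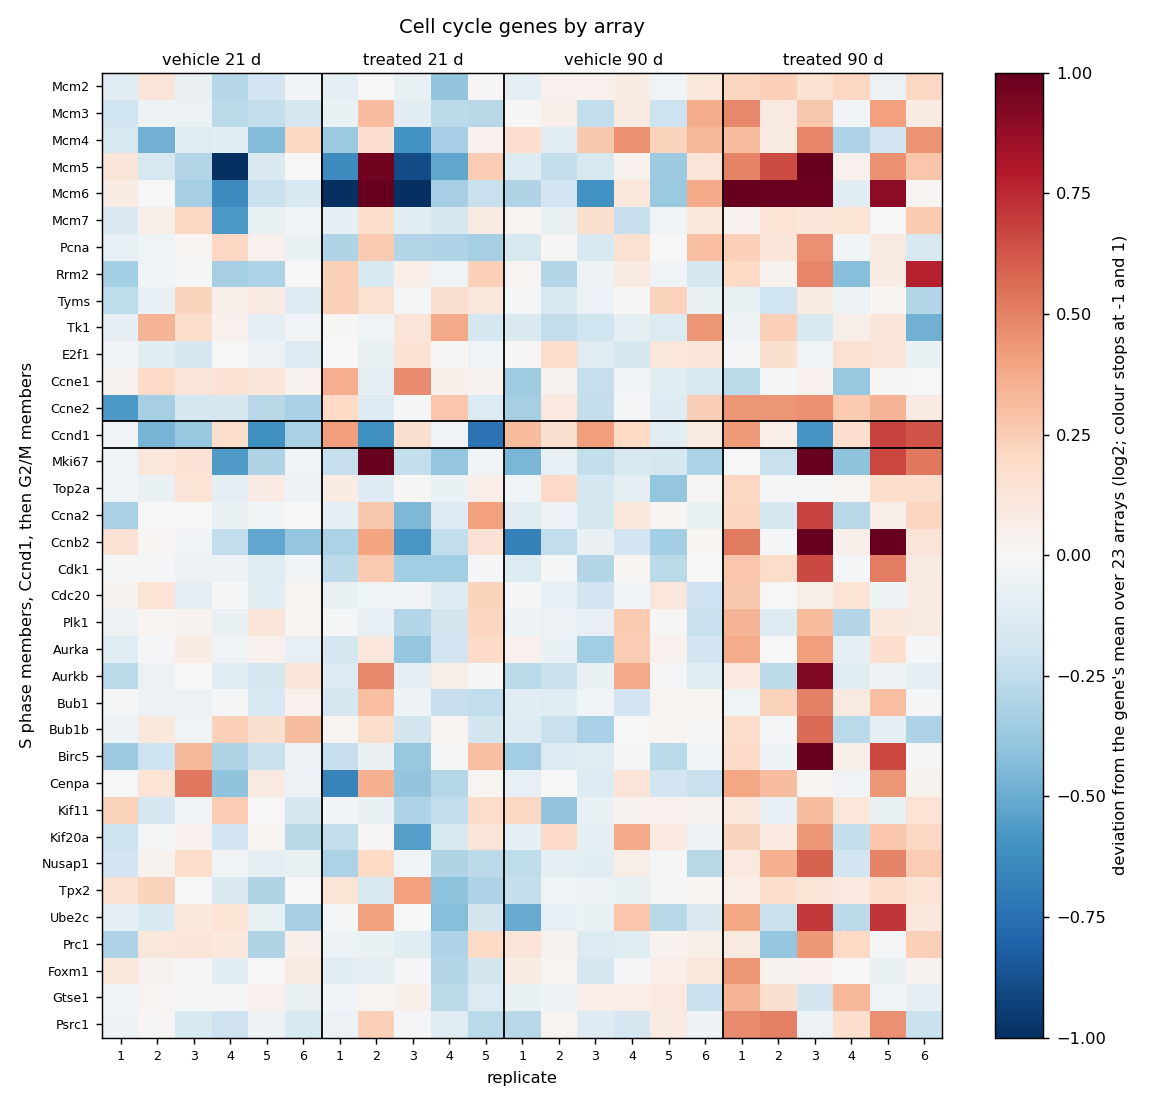
Deviation of each of the 36 members from its mean over the 23 arrays (log2; colours stop at -1 and 1), with livers in columns by group and replicate, and S phase genes, Ccnd1 and G2/M genes from top to bottom. Most of the dark red cells are in replicates 1, 3 and 5 of the treated 90 d group and in replicate 2 of the treated 21 d group.

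Markers of immune cells were high in some of the same livers. The 11 Kupffer cell and macrophage markers deviated by -0.05, -0.49, 1.06, -0.69, 0.75 and 0.44 in treated 90 d replicates 1 to 6, so that replicates 3 and 5 were highest there too. Vehicle livers of 90 d ranged from -0.76 to 0.74. In the other groups, marker deviations of at least 0.74 occurred in treated 21 d replicate 2 (2.02) and in some vehicle livers. These were vehicle 21 d replicates 1 (1.53) and 5 (0.76) and vehicle 90 d replicate 2 (0.74). The G2/M deviation was 0.17 in that treated liver and -0.07, -0.09 and -0.07 in those vehicle livers. All 11 markers had mean differences above 0 at 90 d, with a median of 0.35, and none passed in limma's test. At 21 d none of the 11 was above 0 (median -0.40). Neutrophil markers deviated by 0.62 and 0.53 in replicates 3 and 5 and by 0.79 in replicate 6. Kupffer cell markers averaged 8.17 to 11.12 over all livers. The markers of T and NK, B and plasma, erythroid, stellate, endothelial and bile duct cells and of neutrophils had list medians between -0.03 and 0.15 at 90 d. None of these markers passed in limma's test. An unadjusted limma p under 0.05 was found in 2 of 5 bile duct and 2 of 9 T and NK cell markers. It was also found in 2 of 9 erythroid and 1 of 8 endothelial markers, and in 0 of each other list, against 12.1% of all genes. The medians were 0.15 for bile duct, 0.14 for T and NK, 0.10 for erythroid and 0.11 for endothelial markers. The part of these cells in the 90 d differences was not tested either. Without treated 90 d replicates 3 and 5, a setting chosen after the data were seen, 20 of 22 G2/M genes were above 0 at 90 d, with a median of 0.15. That fit kept replicate 6, with a macrophage marker deviation of 0.44, and is no test of the part of these cells.

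Psrc1, which encodes a microtubule-binding protein of the spindle and is a target of p53, had probe sets that differed. The probe set of highest mean had signals of 6.81, 6.84, 6.28, 6.51, 6.80 and 6.12 in treated livers at 90 d and of 6.06, 6.25 and 6.43 (lowest, median, highest) in vehicle livers, a difference of 0.30 ± 0.11 (SE, limma adjusted p = 0.286). At 21 d it had 6.28, 6.58, 6.32, 6.22 and 6.07, against 6.13, 6.24 and 6.35 (0.05 ± 0.11 SE, limma adjusted p = 0.881). A second probe set, singled out after its values were seen, had 8.29, 7.44, 5.16, 8.09, 7.41 and 4.94 at 90 d, against 4.50 to 4.85 in vehicle livers. All 6 treated livers lay above all vehicle livers, 4 of them by more than 2 log2 units. Full separation upward was found for 0.967% of all genes, each on its probe set of highest mean. The difference was 2.18 ± 0.44 (SE, limma adjusted p = 0.0203). It was the only one of the 83 probe sets of the members to pass at 90 d, where 0.502% of all probe sets passed. The call ended in 6 of 23 fits that each left out 1 array, with limma adjusted p-values of up to 0.0653, and when only the 90 d groups were fitted (0.0838). At 21 d its difference was 0.80 ± 0.46 (SE, limma adjusted p = 0.424), with 6.82 in replicate 2 and 4.91 to 5.49 in the others. The remaining probe set was dim, with a mean of 3.89.

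The split of treated 90 d livers in that probe set was not the one seen in most mitotic genes. Cdkn1a, which encodes the CDK inhibitor p21 and is a target of p53, had signals of 10.89, 10.69, 9.01, 11.79, 10.67 and 9.15 in replicates 1 to 6. Replicates 3 and 6 were thus the lowest of the treated livers both for Cdkn1a and for the second Psrc1 probe set. Replicate 3 was the highest for Mki67 and Cdk1 and replicate 4, with the highest Cdkn1a, the lowest. Replicate 6, also low for Cdkn1a (9.15), had a Cdk1 signal of 7.09, above that of replicate 4 alone. At 21 d, treated replicate 2 had the highest Cdkn1a (10.26) and also the highest Mki67 (6.59) and Cdk1 (7.26) of its group. With 5 or 6 livers per group and genes chosen on these values, this is a description.

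**Figure D5:**
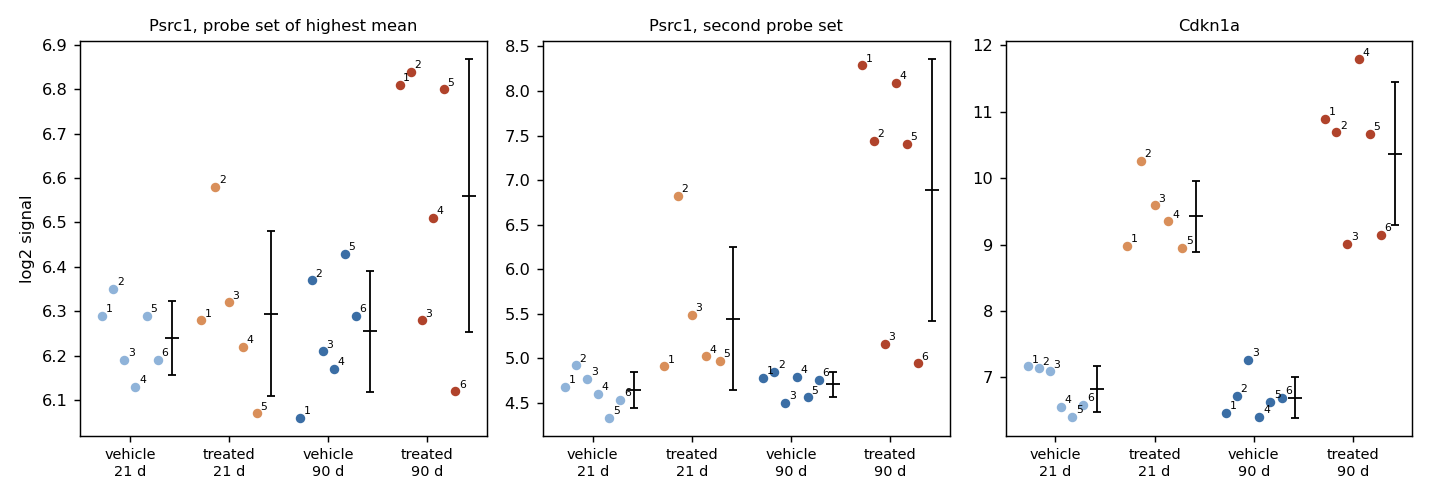
Log2 signal of 2 probe sets of Psrc1 and of Cdkn1a in each liver, numbered by replicate, with group mean and SD as a bar; each panel has its own axis. In treated livers at 90 d, replicates 3 and 6 were lowest in all 3 panels, at 9.01 and 9.15 for Cdkn1a against 10.67 to 11.79 in the other livers.

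Of the genes that act in G1, 2 CDK inhibitors passed, whereas the cyclin gene Ccnd1 did not. Cdkn1a had lowest, median and highest signals of 6.41, 6.84 and 7.17 in vehicle and values of 8.98, 10.26, 9.59, 9.35 and 8.95 in treated livers at 21 d. It rose 6.06-fold at 21 d (log2 difference 2.60 ± 0.36 SE, limma adjusted p = 0.00135) and 12.7-fold at 90 d (3.67 ± 0.34 SE, limma adjusted p = 2.13e-06). Of the other 6 CDK inhibitor genes, only Cdkn2c, which encodes p18-INK4C, passed, at 90 d. Of all probe sets, 0.957% passed at 21 d and 0.502% at 90 d. Cdkn2c had signals of 8.60, 8.13, 8.07, 8.18, 8.48 and 8.02 in treated livers at 90 d. All lay above the vehicle range of 7.34 to 7.68, which was so for 0.967% of all genes. Cdkn2c differed by 0.74 ± 0.14 (SE, limma adjusted p = 0.0128). At 21 d it differed by 0.07 (limma adjusted p = 0.887). Cdkn2c in vehicle livers was 0.75 lower at 90 d than at 21 d (limma adjusted p = 0.0787), and treated livers at 90 d had about the level of vehicle livers at 21 d (8.25 and 8.26). Ccnd1, the G1 cyclin among the members, had 10.72, 9.69, 10.46, 10.27 and 9.56 in treated and 9.69, 9.95 and 10.48 in vehicle livers at 21 d. At 90 d it had 10.73, 10.37, 9.71, 10.47, 10.98 and 10.93, against 10.19, 10.48 and 10.72. The groups overlapped at both times, with differences of 0.11 ± 0.21 and 0.05 ± 0.20 (SE, limma adjusted p = 0.864 and 0.958).

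Genes of the same pathways outside the members were read from the same fits. Of 48 other G2/M genes none passed in limma's test at 21 d or 90 d, and 2 and 14 had an unadjusted limma p under 0.05, against 16.6% and 12.1% of all genes. At 90 d 35 of them were above 0 (57.3% of all genes), with a median of 0.09; the largest value was that of Cep55, a gene of abscission (0.56 ± 0.22 SE, limma adjusted p = 0.349). At 21 d the largest was that of Cks2, a subunit of CDK complexes (-0.27 ± 0.11 SE, limma adjusted p = 0.236). Of 34 other S phase genes 1 fell at 90 d and none passed at 21 d, while 12 and 4 had an unadjusted limma p under 0.05. The gene was Pola1, the catalytic subunit of DNA polymerase alpha, with signals of 6.14, 6.52, 7.29, 6.46, 6.48 and 6.87 in treated livers at 90 d and of 7.12 to 7.23 in vehicle livers. Replicate 3 lay above the vehicle range and the other 5 below it. Pola1 fell by 0.56 (SE 0.13, limma adjusted p = 0.0439), and it differed by -0.52 ± 0.13 (SE) at 21 d (limma adjusted p = 0.0531). The 90 d call held in 5 of 23 fits that each left out 1 array (highest limma adjusted p 0.12). It ended when only the 90 d groups were fitted (limma adjusted p = 0.129), and when the gene's probe sets were averaged, where the difference was -0.28 (limma adjusted p = 0.0937). Of 21 G1 regulators and RB pathway genes none passed in limma's test, with 5 and 3 unadjusted limma p-values under 0.05; the largest values were those of Myc at 21 d (0.47 ± 0.26 SE, limma adjusted p = 0.391) and Rbl1 at 90 d (0.37 ± 0.24 SE, limma adjusted p = 0.642).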

How the data were processed

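Liver RNA of 23 mice was measured on Affymetrix expression arrays, 1 array per animal. The deposited log2 values were made with RMA (robust multi-array average) and Partek, per the submitters' processing notes; no version is given in the sources used here. No label states the log base, which was taken as 2 because RMA was used and the deposited values run from 2.23 to 15.41. RMA brings arrays to a common distribution, so a shift shared by all genes would not show.

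After 64 control probe sets were left out, 45037 were tested; 34945 were annotated to 1 gene, 932 to several and 9160 to none. The 4 group means were fitted to all 23 arrays with limma 3.58.1 in R 4.3.3 (lmFit, eBayes; 19 residual degrees of freedom), with Benjamini-Hochberg adjustment over the 45037. The fit was tested on simulated data. Deviations of a list are means over its genes, with no test. The members and the gene lists were chosen with earlier results of these data known. All 36 measured members are named; signals by liver are given for Mki67, Top2a, Cdk1, Mcm2, Mcm5, Pcna, Rrm2, Ccnd1 and Psrc1, listed by name, and for others, such as Ccne2, Mcm6 and Ccnb2, chosen after their values were seen. Of each further list, up to 4 passing genes were named, or the 1 with the largest change. The labels do not say whether replicate numbers pair the animals, and the main fit did not use them. Correlations of the deviations of same-numbered livers were -0.36 to -0.14 in 11 pairs. Why all were below 0 was not tested. No 2 arrays held identical values. Limma p-values set a mean difference against the spread between animals within groups, and the number of arrays limits their precision.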

Additional observations from a re-analysis of the deposited data

Results flagged for a closer look

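Of 160 combinations of a gene and a group, 11 had 1 liver far from the others by Dixon's criterion, which chance gives in about 1 of 20. Treated 21 d replicate 2 was high for Pcna (10.59, others 10.00 to 10.04) and Mki67 (6.59, others 5.05 to 5.40). Treated 21 d replicate 4 was low for Mcm2 (7.19, others 7.49 to 7.60). In the treated 90 d group, replicate 3 was high for Aurkb (4.77, others 3.58 to 3.94), replicate 1 for Foxm1 (7.10, others 6.59 to 6.70), and replicate 5 was low for Mcm2 (7.53, others 7.74 to 7.82). Among vehicle livers, 21 d replicate 4 was low for Mcm5 (5.61, others 6.35 to 6.77) and 21 d replicate 1 for Ccna2 (5.76, others 6.02 to 6.09). At 90 d, vehicle replicate 6 was high for Tk1 (8.85, others 8.16 to 8.31), replicate 1 was low for Tpx2 (5.19, others 5.36 to 5.45), and replicate 3 was high for Cdkn1a (7.27, others 6.41 to 6.72).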

How the results depend on the processing

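The direction of the G2/M median at 90 d was kept under each of the 10 other settings and in all 23 fits that left out 1 array (0.14 to 0.22, with 21 or 22 of 22 genes above 0). Calls were less firm. The share of all probe sets that passed under each setting is not given here, so the counts below do not set the members apart from other genes. At 90 d the S phase count was 1 when probe sets were averaged per gene, 1 with array weights, 1 with the Gapdh difference as a covariate and 2 without the arrays over 0.9. The G2/M count at 90 d was 1 when they were averaged, 2 with the covariate, 3 without the arrays over 0.9 and 1 where any probe set of a gene counted, a setting chosen after seeing the data. Without the arrays over 0.9 the G2/M median was 0.13 at 21 d, 0.11 for the difference of the effects and 0.08 between treated groups, and the S phase medians of the last 2 were -0.10 and -0.07. Leaving out 1 array gave 0 to 1 S phase calls at 21 d and at 90 d and 0 to 1 G2/M calls at 90 d. Between treated groups it gave 0 to 5 S phase and 0 to 4 G2/M calls, the highest without treated 21 d replicate 2. The cause of these shifts was not tested. With the replicate number as a block, no member count changed, with 0 calls in each comparison and medians of -0.04 and 0.18 for G2/M genes and 0.09 and 0.12 for S phase genes at 21 d and 90 d; the Pola1 call at 90 d ended (adjusted p = 0.0828). Restricting to means of at least 6 kept 7 of 22 G2/M genes (median 0.28 at 90 d). Of 25 members with more than 1 probe set, 7 had probe sets of both signs at 90 d and 17 at 21 d, and the low signals of 16 members limit what could be seen.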
